A study of Mus musculus with 12 samples.

Results

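Peaks of open chromatin were examined in the olfactory and vomeronasal receptor genes of mouse hepatocytes. A gene was a member if its symbol begins with Olfr, Vmn1r or Vmn2r, and a peak was a member if it overlapped the span of such a gene extended by 5 kb on each side. On chromosomes 1 to 19 there were 2043 such genes (1420 Olfr, 372 Vmn1r and 251 Vmn2r), of which 584 are annotated as pseudogenes, and their extended spans cover 26.7 Mb. Over 12 peak lists, 4587 of 2167255 peaks were members. After merging, 220 of the 135387 regions tested between groups were members: 137 at Olfr, 31 at Vmn1r and 52 at Vmn2r genes.

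The libraries are ATAC-seq libraries, made with a transposase that cuts and tags open DNA, from liver hepatocytes separated by 2-step collagenase perfusion. All 12 mice carried floxed Fbxl5 alleles (FBXL5F/F), and 6 also carried Cre driven by the albumin promoter (Alb-Cre/FBXL5F/F), which is active in hepatocytes. FBXL5 is the iron-sensing subunit of a ubiquitin ligase, and DDC, given at 0.1% in the diet for 2 weeks, is a compound that causes porphyrin accumulation and cholestasis. Each combination of genotype (floxed control or Fbxl5-deleted) and diet (standard or DDC) was represented by 3 mice, which makes 4 groups. Age and sex are not among the labels used here.

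Olfactory receptors are G protein-coupled receptors of the nose, encoded by the largest mammalian gene family, and each olfactory neuron is known to express a single receptor gene while the others are kept in compact, repressive chromatin. Class I receptors form a single large cluster on chromosome 7, and class II receptors are spread over many clusters. Vmn1r and Vmn2r genes encode pheromone receptors of the vomeronasal organ. Vmn2r receptors carry a long extracellular domain encoded by several exons, whereas Olfr and Vmn1r coding sequences usually lie in a single exon. In these data the median annotated length was 945 bp for Olfr, 921 bp for Vmn1r and 16059 bp for Vmn2r genes. Peak lists hold no RNA, so whether any receptor gene was expressed was not measured.

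Few receptor promoters held a peak. Of 1265 promoter windows of 1260 receptor genes (250 bases before to 50 after the start, RefSeq, GRCm38.p6), 60 (4.74%) overlapped a peak in any list (26 without the 2 libraries described below), 10 in at least 3 lists and 0 in all 12. Of 30131 windows of other genes, 59.4% did so in any list, 51.6% in at least 3 and 42.1% in all 12. The receptor windows were also poorer in G and C, with a median of 35.7% against 53.7%, and held a median of 1 CpG against 8. Short motifs were searched on both strands. CCCNNGGG, the core of the EBF site, was in 4.19% of receptor windows and 14.3% of the others. TAATTA, a homeodomain core, was in 16.7% against 4.79%, and TATAAA was in 39.6% against 12.5%. These shares describe letters in the windows and not bound sites.

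The promoters below are those where a tested region covered the most bases of the 250 before the start. Sequences run 5′ to 3′ on the gene's strand, and capitals mark the bases inside the tested region. In order, they lie at chr3:64287418-64287667 (minus strand), chr7:106813879-106814128 (plus), chr10:78618075-78618324 (minus) and chr17:37211852-37212101 (minus).
Vmn2r3: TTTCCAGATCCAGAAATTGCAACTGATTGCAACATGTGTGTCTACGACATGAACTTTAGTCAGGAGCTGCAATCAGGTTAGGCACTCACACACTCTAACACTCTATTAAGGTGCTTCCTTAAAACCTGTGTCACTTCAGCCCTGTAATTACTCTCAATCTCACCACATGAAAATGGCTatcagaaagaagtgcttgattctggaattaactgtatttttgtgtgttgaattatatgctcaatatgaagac
Olfr701: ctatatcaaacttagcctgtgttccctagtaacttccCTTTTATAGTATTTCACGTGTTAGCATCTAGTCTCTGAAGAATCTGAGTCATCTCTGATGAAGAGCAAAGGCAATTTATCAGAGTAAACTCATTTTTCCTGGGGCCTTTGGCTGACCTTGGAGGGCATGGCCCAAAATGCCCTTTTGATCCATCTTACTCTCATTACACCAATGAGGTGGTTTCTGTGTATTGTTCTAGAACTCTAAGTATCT
Olfr1357: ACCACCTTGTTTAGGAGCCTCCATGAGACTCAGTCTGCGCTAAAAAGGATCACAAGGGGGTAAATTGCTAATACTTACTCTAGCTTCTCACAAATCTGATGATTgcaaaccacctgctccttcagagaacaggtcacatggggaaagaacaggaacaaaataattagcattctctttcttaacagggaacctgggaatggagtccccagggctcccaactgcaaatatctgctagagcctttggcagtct
Olfr95: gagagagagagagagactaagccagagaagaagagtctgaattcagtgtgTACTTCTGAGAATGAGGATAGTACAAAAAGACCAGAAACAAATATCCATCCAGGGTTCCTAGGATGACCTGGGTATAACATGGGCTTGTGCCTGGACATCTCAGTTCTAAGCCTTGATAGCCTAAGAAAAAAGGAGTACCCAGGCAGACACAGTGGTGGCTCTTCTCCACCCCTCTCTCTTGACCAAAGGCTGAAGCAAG
The regions covered 178 bases at Vmn2r3, 213 at Olfr701, 104 at Olfr1357 and 200 at Olfr95. A peak overlapped the 300-base window in 10 lists at Vmn2r3, 5 at Olfr701, 7 at Olfr1357 and 8 at Olfr95. Between any of these 4 and the other promoters under tested regions, 43.9% to 50.9% of aligned bases were identical.

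One pair was far more alike. Olfr9 and its neighbour Olfr763 on chromosome 10 shared 223 of 254 aligned columns (87.8%), and a run of 90 bases ending at the start was identical. That run is in capitals here, at chr10:128989664-128989913 for Olfr9 and chr10:129011037-129011286 for Olfr763, both on the plus strand.
Olfr9: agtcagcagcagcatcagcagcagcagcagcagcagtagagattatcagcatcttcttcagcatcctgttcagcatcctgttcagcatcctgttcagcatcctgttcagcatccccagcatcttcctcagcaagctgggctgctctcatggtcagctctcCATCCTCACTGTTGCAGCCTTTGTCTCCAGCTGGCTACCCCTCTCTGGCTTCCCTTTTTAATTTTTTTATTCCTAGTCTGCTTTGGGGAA
Olfr763: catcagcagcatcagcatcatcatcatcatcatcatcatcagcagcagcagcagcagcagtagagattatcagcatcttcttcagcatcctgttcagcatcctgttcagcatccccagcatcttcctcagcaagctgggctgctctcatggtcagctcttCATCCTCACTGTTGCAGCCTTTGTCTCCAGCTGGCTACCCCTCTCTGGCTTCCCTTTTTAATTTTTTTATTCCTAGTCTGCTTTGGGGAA
The region of each gene began just after the start and was in all 12 of the lists cut to equal length for the tests between groups. At Olfr9 the fold enrichment, the height of a peak over the background the peak caller estimated, was 5.21, 8.44 and 4.79 in control mice 1, 2 and 3 on the standard diet and 8.70, 8.75 and 6.47 on DDC. In Fbxl5-deleted mice it was 4.08, 5.36 and 5.74 on the standard diet and 8.19, 6.54 and 6.40 on DDC. At Olfr763 it was 7.68, 4.75 and 5.86, then 5.80, 8.75 and 6.47, in controls, and 5.50, 5.99 and 8.01, then 8.68, 6.54 and 5.91, in Fbxl5-deleted mice. Neither region passed the test in any comparison. The sources used here do not say how reads were placed between near-identical copies, so values of such pairs are uncertain.

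Libraries 1 and 3 of the Fbxl5-deleted standard-diet group stood apart. They listed 1136 and 857 receptor-gene peaks, against 180 to 411 in the other 10, and 254830 and 254626 peaks in all, against 133957 to 198785. Of their receptor-gene peaks, 90.7% and 89.3% had a −log10 q under 2, against 31.1% to 65.5% in the others. Of the same peaks, 894 and 607 lay in regions that no other list held. Total reads per library are not in the files, so depth is unknown. Several results that rest on this pair are given with and without it. The region tests of genotype on the standard diet are not given without it. Without the pair its group holds 1 mouse, so tests without it also rest on fewer mice. Fbxl5 itself held 1 to 5 peaks per library, but the labels do not say which exons were floxed, so this does not check the genotype. Of the hepatocyte marker genes, 12 of 12 had a peak within 5 kb in every library, as did 3 of 7 macrophage, 6 of 6 sinusoidal endothelial, 6 of 6 stellate, 3 of 6 cholangiocyte and 2 of 6 lymphocyte marker genes. The same held for 5 of 6 olfactory neuron and 3 of 3 vomeronasal neuron marker genes. A peak in every library therefore does not by itself mark a cell type.

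Receptor genes held far fewer peaks per length than other genes. Their extended spans held a median of 9.37 peaks per Mb over the 12 libraries (range 6.74 to 42.6), and other genes, extended alike, 99.3 (78.7 to 136). Taste receptor, trace amine receptor, hair keratin-associated and defensin genes, which are also clustered families used outside hepatocytes, held 29.4 per Mb (16.5 to 86.6). The Mup, Cyp, Ugt and Serpina families, which are clustered and typical of hepatocytes, held 185 per Mb (177 to 220). Within a library the mean difference, receptor genes minus the first of these family sets, was −21.6 per Mb and, minus the second, −174.4 per Mb, lower in 12 of 12 libraries for each (exact sign-flip permutation test over libraries, p = 0.000488, the smallest it can give, and adjusted p = 0.00122). Over the 10 libraries without the pair that stood apart the mean differences were −17.8 and −173.9 per Mb. With only peaks of −log10 q of at least 5 the medians were 2.90 per Mb in receptor genes, 11.3 in the first set, 78.2 in the second and 40.7 in other genes.

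**Figure D1:**
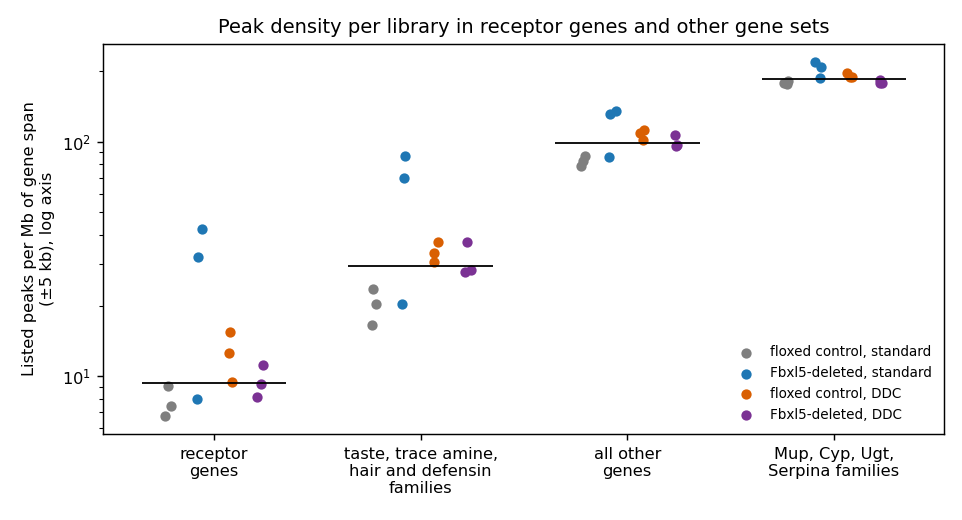
Listed peaks per Mb of extended gene span (log axis) for receptor genes and 3 other gene sets; each point is 1 mouse, colours are groups and lines are medians over 12 libraries. Receptor genes have the lowest density, with a median of 9.37 per Mb, and 2 Fbxl5-deleted standard-diet mice lie at 42.6 and 32.1.

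The receptor-gene peaks had lower fold enrichment than others by a small margin, which depended on the gene span used. Their median fold enrichment ran from 2.29 to 4.26 over the libraries and that of all other peaks from 2.29 to 4.38. The mean difference of the medians within a library was −0.14 log2, lower in 9 libraries and equal in 3 (exact sign-flip permutation test, adjusted p = 0.00651). Against the taste, trace amine, hair and defensin families it was −0.25 (adjusted p = 0.00977, lower in 8 of 12). Against the hepatocyte families it was −0.14 (adjusted p = 0.0498, lower in 8 of 12), and without 8 of the libraries, each left out in turn, this last call was lost. Over the 10 libraries without the pair that stood apart the 3 differences were, in order, −0.165, −0.306 and −0.0841. With gene spans not extended none of the 3 passed: the differences were −0.0716 from all other peaks (exact permutation p = 0.156), −0.104 from the first families (p = 0.199) and −0.0633 from the hepatocyte families. With peaks of −log10 q of at least 5 only, the difference from the hepatocyte families was 0.14 in the other direction, and that from all other peaks was −0.01 (exact permutation p = 0.698).

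Of the 4587 receptor-gene peaks, 1920 (41.9%) lay in regions that a single list held, against 15.2% of all peaks. Merged over the deposited lists the receptor-gene peaks formed 2323 regions, so 82.7% of the regions were in a single list, against 60.5% of all 542612 regions. The libraries that stood apart account for 1501 of the 1920 and the other 10 for 419. Merged over those 10 alone, receptor-gene peaks formed 809 regions, of which 59.1% were in a single list, against 46.0% of all regions, and 18.4% of their peaks lay there, against 9.75% of all peaks. At the other end, 79 regions (3.40%) were in all 12 lists, against 12.5% of all regions, and 11.4% against 20.5% were in all of the 10. Counted by gene, 1188 of 2043 (58.1%) had a peak in some library, 70 (3.43%) had one in every library, and 855 had none. Without the pair 526 (25.7%) had a peak in some library and 77 in all of the 10. By family, 48 of 1420 Olfr (3.38%), 11 of 372 Vmn1r (2.96%) and 11 of 251 Vmn2r genes (4.38%) had a peak in every library. Pseudogenes had one in every library in 21 of 584 cases (3.60%) and protein-coding receptor genes in 49 of 1458 (3.36%). Class I genes, taken from the older MOR names in the annotation, had one in 5 of 160 cases and class II genes in 38 of 1119.

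**Figure D2:**
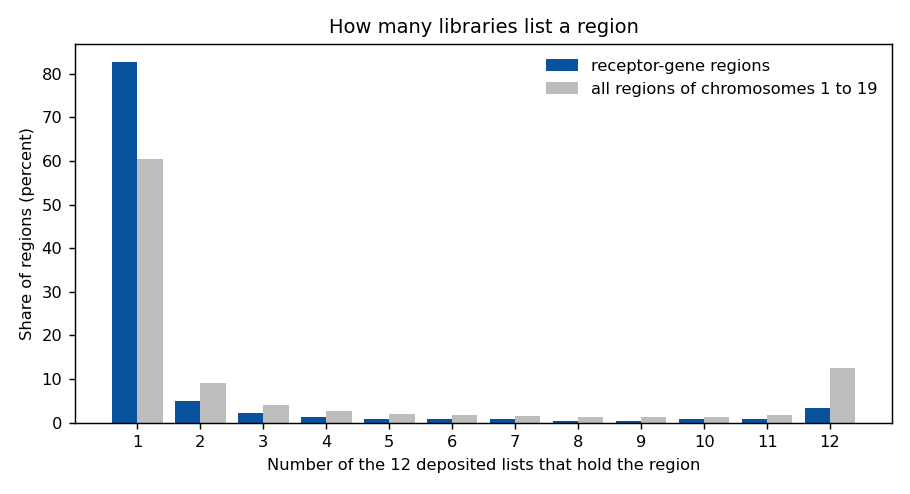
Share of merged regions (percent) by the number of the 12 deposited lists that hold them, for 2323 receptor-gene regions and all 542612 regions. The receptor-gene regions are more often in 1 list only (82.7% against 60.5%, and 59.1% against 46.0% without Fbxl5-deleted standard-diet mice 1 and 3) and less often in all 12 (3.40% against 12.5%).

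For tests between groups the strongest 133957 peaks of each library were kept, the length of the shortest list, and merged where they overlapped. Regions in at least 3 of the 12 kept lists were tested. Of the 220 receptor-gene regions, 67 (30.5%) were in all 12, against 44.7% of all tested regions, and their median width was 422 bp against 471 bp. Of the 220, 8 overlapped a receptor promoter window. For 135 of them every receptor gene within 5 kb has a listed start, and of these 18 lay within 1 kb of such a start and 43 over 5 kb away. The other 85 lay near a receptor gene without a listed start, so their distance is not given. Another gene lay within 1 kb of 41, of which 21 were protein-coding neighbours, and 179 had only receptor genes near. Receptor pseudogenes were the nearest receptor gene for 67.

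The strongest recurrent regions often had such a neighbour. The highest was 4857 bp from Olfr311 at the gene Gm12258 (chr11:58846899-58847656). Its fold enrichment was 24.9, 26.4 and 28.3 in standard-diet controls and 20.2, 26.6 and 24.1 in standard-diet Fbxl5-deleted mice. On DDC it was 27.0, 33.4 and 24.1 in controls and 27.0, 23.1 and 23.1 in Fbxl5-deleted mice, so the 4 groups overlapped. Of the 10 strongest, 6 lay within 1 kb of another gene: those at Olfr311, Vmn2r-ps23 (5430403G16Rik), Vmn1r-ps87 (Zfp780b, a zinc finger gene), Vmn2r-ps91 (Zfp709, likewise), Olfr288 (Gm33909) and Olfr718-ps1 (Gm38734). The other 4 were at Olfr1357, Olfr541, Olfr1127-ps1 and Olfr1036. The Olfr1357 region, 3683 bp from the gene (chr10:78607444-78607986), had fold enrichments from 14.4 to 24.1 over the 12 mice, and the Olfr541 region, 2077 bp away (chr7:140707268-140708494), from 14.4 to 19.04. Neither differed between groups by the test in any comparison.

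Genes with the most tested regions were Olfr1393 with 9, Vmn2r-ps23 with 8 and Olfr1357 with 5; Olfr542-ps1, Vmn1r4, Vmn2r20 and Vmn2r21 had 4 each. At Olfr1393 5 of the 9 lay within 1 kb of Mgat1, a glycosyltransferase gene. Olfr1393 is also annotated as 28487 bp long and Vmn2r-ps23 as 153426 bp, many times the median of their families.

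In the count of receptor-gene peaks, neither diet nor genotype passed the test. Control mice 1, 2 and 3 had 241, 199 and 180 peaks on the standard diet and 253, 334 and 411 on DDC, so every DDC control lay above every standard-diet control. Fbxl5-deleted mice had 1136, 214 and 857 on the standard diet and 218, 297 and 247 on DDC. DDC minus standard within genotype was −177.8 (exact permutation p = 0.400, adjusted p = 0.533), and deleted minus control within diet was 225.2 (p = 0.360, adjusted p = 0.533). Without the libraries that stood apart the signs turned, to 83.0 for diet (exact permutation p = 0.0375) and −35.7 for genotype (p = 0.275). In controls alone the diet difference was 126 peaks (332.7 ± 79.0 against 206.7 ± 31.2, SD, n = 3), with an exact permutation p of 0.100, the smallest that 3 against 3 allows.

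The DDC control lists were also longer, at 175972 to 198785 peaks against 133957 to 148594, and the part of list length in the difference was not tested. As a share of each list the receptor-gene peaks made up 0.162%, 0.140% and 0.134% in standard-diet controls and 0.144%, 0.175% and 0.207% in DDC controls, and these groups overlapped. In Fbxl5-deleted mice the shares were 0.446%, 0.145% and 0.337% on the standard diet and 0.132%, 0.158% and 0.148% on DDC. The share did not pass for diet (−0.0666 percentage points, exact permutation p = 0.365) or genotype (0.0672, p = 0.360). Among the strongest 133957 peaks of each library, 226, 191 and 180 were in receptor genes in standard-diet controls and 200, 196 and 195 in DDC controls. In Fbxl5-deleted mice these numbers were 317, 204 and 207 on the standard diet and 170, 210 and 181 on DDC. The cut fell among peaks of equal fold enrichment in the libraries with 317 and 207, so these 2 numbers depend in part on how ties were ordered. Neither factor passed (diet −28.8, exact permutation p = 0.185; genotype 16.8, p = 0.620).

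The strong receptor-gene peaks were more even over the mice. Those with −log10 q of at least 5 numbered 73, 82 and 77 in standard-diet controls, 82, 103 and 97 in DDC controls, 48, 77 and 58 in standard-diet Fbxl5-deleted mice and 78, 94 and 66 in DDC Fbxl5-deleted mice. Diet then gave 17.5 more peaks on DDC (exact permutation p = 0.0300) and genotype 15.5 fewer in Fbxl5-deleted mice (p = 0.0450); neither value was adjusted over the other settings tried. Both rest in part on the libraries that stood apart, which held 48 and 58 such peaks. Without them, with 1 mouse left in the standard-diet Fbxl5-deleted group, the differences were 9.50 and −7.50, and neither passed. As a share of all peaks of that strength the diet difference was 0.00302 percentage points (exact permutation p = 0.550) and the genotype difference −0.00965 (p = 0.0800), and −0.00647 (p = 0.225) without those libraries.

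**Figure D3:**
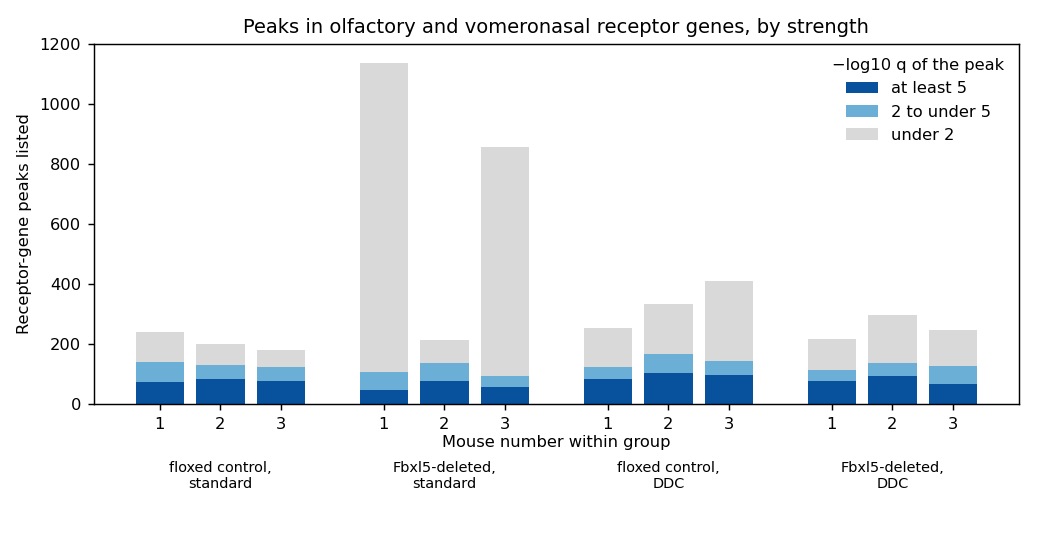
Receptor-gene peaks listed in each mouse, divided by the −log10 q of the peak. Fbxl5-deleted standard-diet mice 1 and 3 hold 1136 and 857 peaks, of which 90.7% and 89.3% are under 2, while peaks of at least 5 number 48 to 103 in every mouse.

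Median fold enrichment of the receptor-gene peaks was 3.59, 4.22 and 4.26 in standard-diet controls and 3.38, 3.06 and 2.59 in DDC controls, which did not overlap. It was 2.45, 3.82 and 2.29 in standard-diet and 3.44, 3.27 and 3.45 in DDC Fbxl5-deleted mice. Over both genotypes the diet difference was −0.239 (exact permutation p = 0.510, adjusted p = 0.583), and −0.724 (p = 0.0125) without the libraries that stood apart. Genotype gave −0.398 (exact permutation p = 0.305, adjusted p = 0.533), and 0.0865 (p = 0.725) without them. The median fold enrichment of all other peaks moved alike, from 4.08, 4.22 and 4.38 in standard-diet controls to 3.86, 3.82 and 3.32 in DDC controls.

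Region by region, DDC went with differences in both directions in control mice. Of 220 receptor-gene regions 29 passed (limma, adjusted p under 0.05 over all tested regions), 14 higher and 15 lower on DDC. That is 13.2%, where 7.12% of all tested regions passed (4.73% higher and 2.39% lower). By family, 10 regions were higher and 6 lower of 137 at Olfr, 1 and 2 of 31 at Vmn1r, and 3 and 7 of 52 at Vmn2r genes. The median difference over the 220 was 0.01 log2, and −0.01 over all tested regions. In bulk nuclei, a change in the share of a cell type and a change within cells cannot be told apart. Leaving out DDC control mouse 2 left 13 calls (5.91%, against 3.68% of all tested regions). Leaving out standard-diet control 1 or DDC control 1 left 18 each (8.18%, against 4.83% and 4.70% of all). With every deposited peak kept, 30 of 286 receptor-gene regions were higher and 7 lower, and the share of all regions is not given here. With no minimum number of lists 14 of 706 receptor-gene regions passed (1.98%, against 1.52% of all). At 4 of the 14 higher and 5 of the 15 lower regions, the lower group held no peak among its strongest.

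The largest falls were in 2 neighbouring Vmn2r genes on chromosome 6. In Vmn2r21 a region (chr6:123495751-123496521) began 3243 bp from the end of the gene with the lower coordinate. Its fold enrichments were 18.4, 16.1 and 13.6 in standard-diet controls and 3.38, 2.19 and 3.02 in DDC controls. Fbxl5-deleted mice had 6.11, 13.4 and 8.01 on the standard diet and, on DDC, no peak in mouse 1 and 3.74 and 3.45 in mice 2 and 3. The groups did not overlap by diet in either genotype. On the normalised log2 scale, on which each library's values are ranked and mapped to a common distribution, it fell by 2.47 ± 0.25 (SE) in controls (limma adjusted p = 1.04e-05) and by 1.69 ± 0.25 in Fbxl5-deleted mice (adjusted p = 0.000619). The peak of DDC control 2 lay under the lowest fold enrichment kept in its library (2.70). That mouse and DDC Fbxl5-deleted mouse 1 took the lowest value, set for absence, so both sizes rest in part on it.

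In Vmn2r22 a region (chr6:123612771-123613749) followed the same order. It began 3013 bp from the end of the gene with the lower coordinate and lay 36886 bp from the listed start. Standard-diet controls had 13.7, 15.8 and 13.6. DDC controls had 3.38 and 4.81, with no peak in mouse 3. Fbxl5-deleted mice had 7.34, 10.4 and 6.87 on the standard diet and 2.89, 2.34 and 3.45 on DDC, again without overlap. It fell by 2.17 ± 0.24 (limma adjusted p = 2.06e-05) and by 1.68 ± 0.24 (adjusted p = 0.000541). DDC control 3 and DDC Fbxl5-deleted mouse 2, whose library kept no peak under 2.80, took the lowest value here, so these sizes also rest in part on it. The genes are annotated as 40899 and 40878 bp long, and their sequences were not compared here, so the regions may share reads and are uncertain as separate observations. Both calls in controls, and both in Fbxl5-deleted mice, held with any single library left out.

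The whole Vmn2r19 to Vmn2r27 cluster (chr6:123308333-124231784), which holds 13 Vmn2r genes, leaned the same way. All 11 of its tested regions had lower values on DDC in controls, 4 passing, and 10 of 11 in Fbxl5-deleted mice, 3 passing, with medians of −0.70 and −0.31 log2. Besides the regions above, 1 at Vmn2r20, which lies near Gm18375, fell by 0.79 ± 0.14 in controls (limma adjusted p = 0.00195), and a further region in Vmn2r21 (chr6:123530462-123531198) fell by 1.25 ± 0.27 in Fbxl5-deleted mice (adjusted p = 0.0124), a call lost without any of 3 single libraries. The cluster listed 19, 18 and 12 peaks in standard-diet controls and 9, 13 and 8 in DDC controls. In Fbxl5-deleted mice it listed 34, 14 and 36 on the standard diet and 7, 12 and 11 on DDC. A region that no mouse of a group held among its strongest peaks took the lowest value there, which set its direction in advance.

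Other vomeronasal regions that fell on DDC in controls were weaker. In Vmn2r93 a region (chr17:18322826-18323488) had 7.69, 4.99 and 8.42 in standard-diet controls and 2.42 and 2.63 on DDC with no peak in mouse 3 (limma adjusted p = 0.00388). A second in the same gene (chr17:18321450-18322231) fell by 1.19 ± 0.30 (adjusted p = 0.0205), a call lost when any of 4 single libraries was left out. Near Vmn1r207 (chr13:22722028-22722618) the fold enrichment was 8.20, 5.80 and 6.39 in standard-diet controls and 2.16 in DDC control 3, with no peak in the other two. The adjusted p was 0.00155. The region near Vmn1r209 (chr13:22802039-22802381) had 6.66, 5.27 and 3.73 on the standard diet and 2.59 in DDC control 3 only (adjusted p = 0.00513). No DDC control held the first Vmn2r93 region, the Vmn1r207 region or the Vmn1r209 region among its strongest peaks, so these differences have no true size. Near Vmn2r57 the fall was 0.98 ± 0.27 (adjusted p = 0.0295), a call lost when any of 4 single libraries was left out.

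Among Olfr genes the regions that fell in controls were fewer. Near Olfr1443 (chr19:12684430-12685270) the fold enrichment was 9.73, 8.97 and 9.59 in standard-diet controls and 3.38, 4.81 and 5.18 in DDC controls. In Fbxl5-deleted mice it was 4.89, 12.5 and 9.16 on the standard diet and 3.37, 4.67 and 4.43 on DDC. The diets did not overlap in either genotype, and it fell by 1.23 ± 0.25 in controls (limma adjusted p = 0.00509) and by 1.22 ± 0.25 in Fbxl5-deleted mice (adjusted p = 0.00987, and 0.0511 without Fbxl5-deleted standard-diet mouse 2). Its neighbour region near Olfr1442 (chr19:12670796-12671640) fell by 1.27 ± 0.31 in controls (adjusted p = 0.0148). The region near Olfr988 on chromosome 2 fell by 1.16 ± 0.33 (adjusted p = 0.0332). The last 2 calls were lost without any of 3 and of 5 single libraries, respectively.

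The largest rise was near a Vmn2r pseudogene. At 1247 bp from Vmn2r-ps13 (chr3:64901006-64901867) standard-diet controls had 4.10, no peak and 6.39, and DDC controls had 13.8, 19.7 and 15.1. Fbxl5-deleted mice had 2.45, 3.00 and 2.86 on the standard diet and 11.1, 18.1 and 8.37 on DDC. Every DDC mouse lay above every standard-diet mouse, and the rise was 1.89 ± 0.30 in controls (limma adjusted p = 0.000619) and 1.99 ± 0.30 in Fbxl5-deleted mice (adjusted p = 0.000843). Near Olfr90 (chr17:37080012-37080610) the values were 3.07, 4.75 and no peak in standard-diet controls and 10.1, 10.8 and 13.3 on DDC. They were 2.45, 3.50 and 3.43, then 9.60, 7.13 and 11.9, in Fbxl5-deleted mice. The diets again did not overlap, with rises of 1.64 ± 0.29 (adjusted p = 0.00145) and 1.50 ± 0.29 (adjusted p = 0.00603, and 0.133 without Fbxl5-deleted standard-diet mice 1 and 3).

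Other Olfr regions rose in controls. Near Olfr52 (chr2:86182646-86183377) the fold enrichment was 2.56, 3.16 and no peak on the standard diet and 5.31, 17.1 and 12.5 on DDC, a rise of 1.80 ± 0.31 (limma adjusted p = 0.00137). In Fbxl5-deleted mice it was 3.67, 5.49 and 5.15, then 10.1, 8.41 and 6.40, and 0.58 ± 0.31 on the normalised scale (adjusted p = 0.348). Near the class I gene Olfr576 (chr7:102967263-102967758) no standard-diet control had a peak, and DDC controls had 6.28, 14.0 and 7.76 (adjusted p = 0.000656). Near Olfr16 (chr1:172960519-172960741) peaks were in the 3 DDC controls alone of all 12 mice, at 4.83, 4.38 and 4.31 (adjusted p = 0.00428). Such a region was tested only because the DDC controls held it, and with no peak in the other group its difference has no true size.

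The remaining rises named by the rule were 1.43 ± 0.36 at Vmn2r-ps135, 1.17 ± 0.28 near Vmn1r-ps1, 1.06 ± 0.28 near Olfr543 and Olfr544, 0.97 ± 0.29 at Olfr1150-ps1 and 0.90 ± 0.27 near Olfr1357. Their limma adjusted p-values ran from 0.0156 near Vmn1r-ps1 to 0.0437 at Olfr1150-ps1. Each of these 5 calls was lost when some single library was left out, for 3 to 7 of the 12 libraries. Near Vmn1r-ps1 DDC control 2 had 11.8, against 4.83 and 6.47 in the other DDC controls and 2.56, 2.64 and 3.20 in standard-diet controls.

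The class I cluster on chromosome 7, Olfr543 to Olfr692 (chr7:102476773-105369317), leaned upward. Of its 18 tested regions 15 had higher values on DDC in controls, 2 passing, and 14 in Fbxl5-deleted mice, 0 passing, with medians of 0.24 and 0.23 log2. It listed 10, 9 and 8 peaks in standard-diet controls and 22, 29 and 37 in DDC controls, which did not overlap. Each standard-diet control thus listed fewer peaks than the 18 tested regions. A region absent from that whole group, as near Olfr576, took the lowest value and could not be lower on DDC. The lean in controls was therefore in part set in advance. In Fbxl5-deleted mice it listed 78, 11 and 71, then 16, 26 and 18. On chromosome 13 the cluster Olfr1370 to Vmn1r-ps135, mostly Vmn1r genes, leaned the other way, with 10 of 14 regions lower in controls and a median of −0.35 log2. The largest cluster, Olfr987 to Olfr1274 on chromosome 2 with 293 genes, had 3 regions called higher and 1 lower of 13, and Olfr90 to Olfr136 on chromosome 17 had 1 higher and 1 lower of 14. Among clusters of at least 10 genes, those with the highest mean density over the 12 libraries were Olfr1396 to Olfr1380 on chromosome 11, with 67.2 peaks per Mb and 0 of 14 regions called in controls, then Olfr522 to Olfr542-ps1 on chromosome 7, with 39.5, and Vmn2r19 to Vmn2r27, with 30.2. By the median over libraries Vmn2r19 to Vmn2r27 had 23.5 and Olfr90 to Olfr136 had 25.8. These leanings were not tested as groups, and the direction of a region absent from a whole group was fixed by the lowest value it took there.

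In Fbxl5-deleted mice DDC went with fewer calls. Of the 220 regions 12 passed (limma), 6 higher and 6 lower, or 5.45%, where 3.21% of all tested regions passed (2.45% higher and 0.762% lower). Without standard-diet Fbxl5-deleted mice 1 and 3 there were 4 calls, among them Vmn2r-ps13, Olfr1443 and the strongest Vmn2r21 and Vmn2r22 regions, and without DDC Fbxl5-deleted mouse 1 or 2 there were 7. Those 7 were 3.18% of the regions, against 1.95% of all without mouse 1 and 1.50% without mouse 2. With every deposited peak kept, 5 of 286 were higher and 10 lower, and with log2 fold enrichment centred on its median 5 and 8. The shares of all regions under these settings are not given here. At 7 of the 220 regions the call was made in both genotypes, with the same sign in each: Vmn2r21, Vmn2r22, Olfr1443, Olfr542-ps1, Vmn2r-ps13, Olfr90 and Olfr1127-ps1. The share of all tested regions called in both genotypes is not given here, so this number is not shown to be particular to receptor genes. In another setting, named 50% overlap here, a peak counted only if it spanned at least 50% of its merged region, and otherwise as absent. With it, 18 calls were made in controls (9.18% of 196 regions, against 4.45% of all) and 2 in Fbxl5-deleted mice (1.02%, against 1.14% of all). The calls at Vmn2r21, Vmn2r22 and Olfr90 in controls held then, those at Vmn2r-ps13 and Olfr1443 did not, and in Fbxl5-deleted mice 11 of the 12 calls were lost.

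Near Olfr542-ps1 (chr7:140717140-140717983) the fold enrichment was 9.18, 8.06 and 9.69 in standard-diet controls and 4.90, 5.43 and 6.32 on DDC. It was 7.57, 8.90 and 10.2, then 6.20, 5.03 and 6.07, in Fbxl5-deleted mice, so the diets did not overlap. The fall was 0.83 ± 0.21 in controls (limma adjusted p = 0.0195) and 0.85 ± 0.21 in Fbxl5-deleted mice (adjusted p = 0.0279, and 0.386 without standard-diet mice 1 and 3). Near Olfr1127-ps1 (chr2:87520492-87521442) values were 13.5, 9.55 and 15.8, then 19.4, 23.6 and 18.9, in controls. They were 7.34, 17.1 and 9.25, then 20.7, 18.8 and 22.4, in Fbxl5-deleted mice. The rise was 0.62 ± 0.18 in controls (adjusted p = 0.0433) and 0.80 ± 0.18 in Fbxl5-deleted mice (adjusted p = 0.0191, and 0.637 without standard-diet mice 1 and 3). The control call was lost without any of 8 single libraries and the other without any of 4, and with 50% overlap the value in Fbxl5-deleted mice turned to −0.23. Both Olfr542-ps1 calls were lost without any of 4 single libraries.

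The other calls in Fbxl5-deleted mice were rises of 1.00 ± 0.22 near Olfr1160 (limma adjusted p = 0.0149), 0.98 ± 0.19 near Olfr1371 (adjusted p = 0.00719) and 0.81 ± 0.22 at a further Olfr90 region (adjusted p = 0.0463), and a lower value near Olfr1393, at Mgat1 (adjusted p = 0.0241), where no DDC Fbxl5-deleted mouse held the region among its strongest peaks. The further Olfr90 call was lost without any of 11 of the 12 libraries and in 19 of its 21 alternatives, where the value ran from 0.05 to 1.13. The Olfr1160 and Olfr1393 calls were each lost without any of 3 single libraries. Without standard-diet mice 1 and 3 the 4 regions had adjusted p-values of 0.323, 0.334, 0.829 and 0.0657. At the Olfr1371 region those 2 mice had 4.28 and 6.87, against 11.97 in their groupmate and 10.2 to 12.1 in standard-diet controls.

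**Figure D4:**
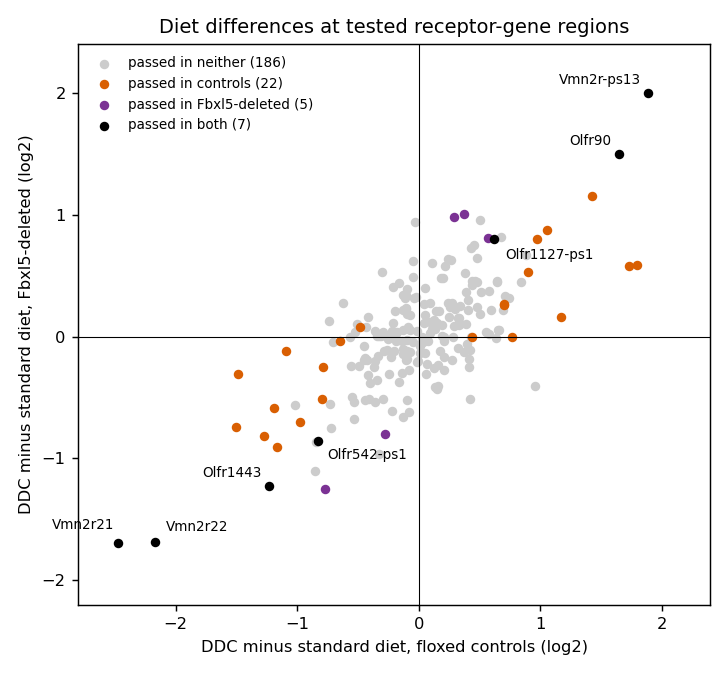
DDC minus standard diet (normalised log2) at the 220 tested receptor-gene regions, with floxed controls on the x axis and Fbxl5-deleted mice on the y axis; colours mark where the limma call was made. The 7 regions called in both genotypes are named, and each lies on the same side of 0 in both.

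**Figure D5:**
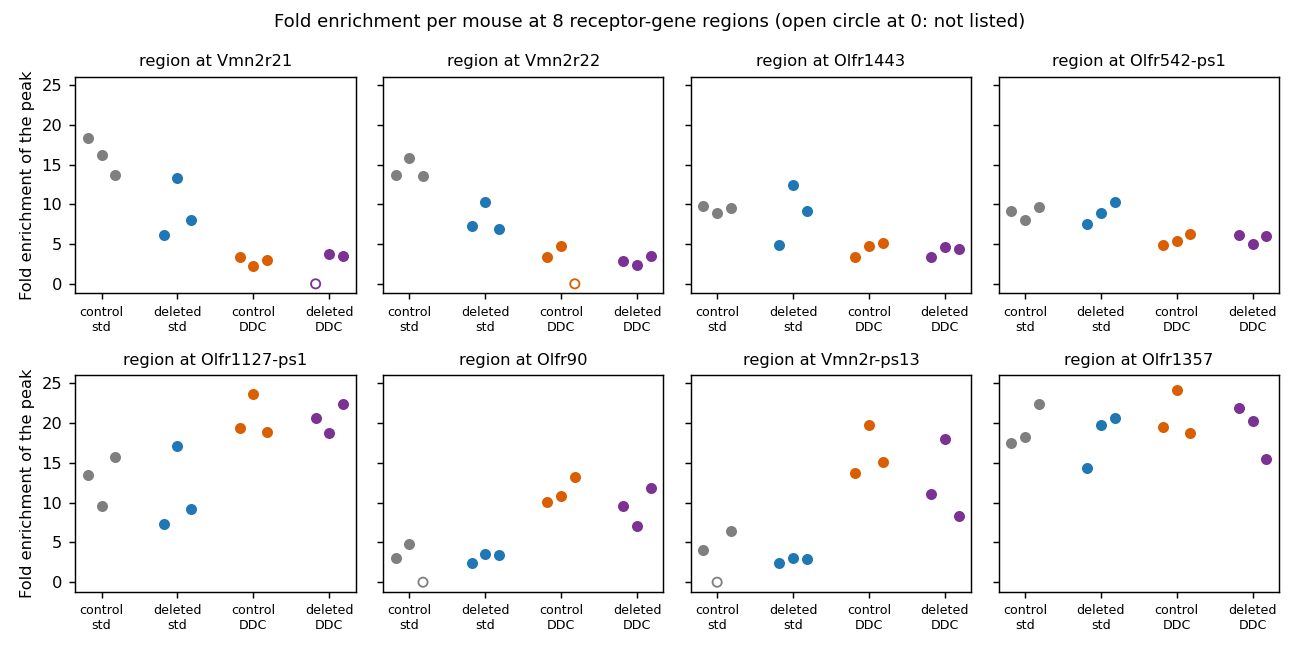
Fold enrichment of the peak in each of the 12 mice at 8 receptor-gene regions; filled points are listed peaks, open circles mark mice without a peak, and colours are the 4 groups. The regions at Vmn2r21 and Vmn2r22 are high on the standard diet, those at Vmn2r-ps13 and Olfr90 are high on DDC, and the region near Olfr1357 lies from 14.4 to 24.1 throughout.

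Genotype gave no call at a receptor-gene region. On the standard diet 0 of 220 passed (limma), where 0.000739% of all tested regions did, and 30 (13.6%) had an unadjusted p under 0.05, against 8.02% of all. On DDC 0 passed, where 0% of all did, and 13 (5.91%) had an unadjusted p under 0.05, against 5.94% of all. The lowest adjusted p-values were 0.211 and 0.296. On the standard diet the smallest p-values were at Vmn1r207 (−1.18 ± 0.26 in Fbxl5-deleted against control mice), Vmn1r209 (−0.98 ± 0.23) and Olfr370 (−0.49 ± 0.14). Near Vmn1r207 the Fbxl5-deleted mice had 1.83, 4.49 and 1.72, below the 5.80 to 8.20 of controls. The peaks of mice 1 and 3 lay under the lowest fold enrichment kept in their libraries (2.45 and 2.29). Both mice therefore took the value set for absence. Without Fbxl5-deleted mouse 2 the limma adjusted p was 0.0306. That fit left only mice 1 and 3 in the group, so its difference has no true size. On DDC the smallest p-values were at Olfr16 (−0.77 ± 0.16), Vmn2r-ps7 (−0.44 ± 0.12) and Olfr576 (−0.96 ± 0.28). Where the Fbxl5-deleted group held none among its strongest peaks, as at Olfr370, Olfr16 and Vmn2r-ps7, the difference has no true size. When a peak counted only if it spanned at least 50% of its merged region, 1 region passed on each diet.

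The diet effects did not differ between genotypes by the test at any receptor-gene region. Of 220, 0 passed (limma), where 0% of all tested regions did, 19 (8.64%) had an unadjusted p under 0.05, against 5.86% of all, and the lowest adjusted p was 0.847. The smallest p-values were at Olfr16, Vmn1r207 and Vmn2r89, a vomeronasal receptor gene. A call in 1 genotype alone, as near Olfr52 or Olfr576, is therefore not shown to be particular to it.

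Genes that act with the receptors were examined as a fixed list. Of 18 olfactory transduction genes, 17 lie on chromosomes 1 to 19, and 15 of these had a peak within 5 kb in every library. Omp, the olfactory marker protein, and Gnal, the olfactory G protein subunit, were among them. Their 103 tested regions gave 4 calls higher and 1 lower on DDC in controls and 3 higher and 2 lower in Fbxl5-deleted mice, with medians of 0.05 and 0.11 log2. That is 4.85% in each, where 7.12% and 3.21% of all tested regions passed. The list of genes for receptor choice and silencing, which holds Lhx2, Ldb1, the Ebf genes and heterochromatin enzymes, had a peak in every library at 24 of 24 genes. Of its 310 regions 8 were called higher and 7 lower on DDC in controls, and 1 higher and 3 lower in Fbxl5-deleted mice, with medians of −0.06 and −0.05. These shares, 4.84% and 1.29%, lay below the same 7.12% and 3.21%. At Kdm1a, the histone demethylase LSD1, a region (chr4:136570003-136570431) rose by 2.20 ± 0.23 in controls (limma adjusted p = 1.15e-05) and by 1.65 ± 0.23 in Fbxl5-deleted mice (adjusted p = 0.000464). At Nfib, a nuclear factor I gene, a region (chr4:82470892-82471495) fell by 1.17 ± 0.24 (adjusted p = 0.00478) and by 1.62 ± 0.24 (adjusted p = 0.000666).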

How the data were processed

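Per the submitters' processing notes, the authors used MACS2, Bowtie2, fastp, Picard, SAMtools, deepTools and bedtools, and the mouse build mm10. Versions, settings, the treatment of reads with several placements and any transposase shift were not given in the sources used here. Each library has its own list deposited by the authors; no source used here says whether replicates were pooled at any step. In the deposited lists the fold enrichment is a ratio of peak height to the background estimated in the same library, and the −log10 p and −log10 q are the caller's. The smallest −log10 p in the deposited lists corresponds to a p-value of 0.0500, and the deposited score is the whole part of 10 times −log10 p. The lists hold no read counts, so depth is unknown, and no interval for counting error can be given.

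Lines with equal chromosome, start and end were joined and chromosomes 1 to 19 kept. Genes came from the GRCm38.p6 RefSeq table, which gives spans without exons, so exonic and intronic positions are not known here. A few receptor genes have positions close to 0, such as Vmn2r122 (chr4:3536-11935) and Olfr100 (chr17:80755-81681). These 2 held no peak in any library and count among the genes without a peak. Whether such positions lie on the assembled chromosomes was not checked. The strongest 133957 peaks of each library, ordered by fold enrichment and then −log10 p, were merged at 1 bp into 285767 regions. The 135387 in at least 3 libraries were tested; a region's value was set by its rank in the library, read off the average log2 fold enrichment distribution of the 12 libraries, and absence took the lowest value, 1.27. limma 3.58.1 in R 4.3.3 (trend, robust, 4 group means, 12 libraries) gave differences, adjusted by the Benjamini-Hochberg method over all tested regions and called under 0.05. Library values were compared by two-sided exact permutation, within strata (400 relabellings, smallest p 0.005, adjusted over 8 tests) or by flipping signs over libraries (4096 flips, adjusted over 5). Scripts ran in Python 3.11.15 with Biopython 1.88 (global alignment), scipy 1.17.1, pandas 2.3.3 and numpy 2.4.6. Tested on simulated data for DDC in controls (135387 regions), the fit recovered 44% of regions changed by 1 log2 and 91% of those changed by 2, with 2.88% false calls. How far these shares carry over to regions absent from a whole group, or to the libraries that stood apart, was not tested.

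The members and lists were chosen with earlier results of these data known. Regions named were the 10 largest called differences per direction and comparison (the 3 smallest p-values where fewer than 3 were called), the 10 strongest in all 12 libraries, the genes with most regions (4 tied for the fourth place) and the clusters with most peaks or most per Mb (the latter among those of at least 10 genes), where receptor genes up to 500 kb apart form a cluster. Vmn2r20 in the chromosome 6 cluster, Kdm1a, Nfib, Omp and Gnal, and the promoters of Vmn2r3, Olfr701, Olfr95, Olfr9 and Olfr763 were chosen after their values were seen, as was the use of MOR names for class I and II. The mouse numbers did not pair libraries: deviations from group means correlated between −0.01 and 0.06.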

Additional observations from a re-analysis of the deposited data

How the results depend on the processing

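Region calls moved more than the differences behind them. Over all alternatives, 812 values of single regions kept direction and side of the threshold, 191 kept direction only and 2 newly passed. The 812 include comparisons not called to begin with, such as genotype on DDC at Olfr16. They also include fits without a library from outside the groups compared, which leave the difference itself unchanged. When a peak had to span at least 50% of its merged region, Olfr1127-ps1 in Fbxl5-deleted mice reversed to −0.23 and Vmn2r22 there went to 0. In that setting a narrower peak took the value for absence, so a listed peak could count as absent. How many peaks of these 2 regions did so was not counted.

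The counts called in controls and in Fbxl5-deleted mice were 18 and 2 with 50% overlap (9.18% and 1.02%, against 4.45% and 1.14% of all regions). They were 8 and 6 with only regions in all 12 libraries (fewer regions tested; 11.9% and 8.96%, against 5.81% and 3.45%), and 9 and 4 with gene spans not extended (fewer members; 13.8% and 6.15%, against 7.12% and 3.21%). Without a filter on regions 14 of 706 were called in controls (1.98%, against 1.52%). In Fbxl5-deleted mice 7 were called when only the groups compared were fitted (3.18%, against 1.24%) and 4 without standard-diet mice 1 and 3 (1.82%, against 0.870%). Leaving out 1 library gave 13 to 34 in controls, 7 to 13 in Fbxl5-deleted mice, 0 to 1 for genotype on the standard diet and 0 for the other comparisons. The share of all regions called moved as well, to 3.68% in controls without DDC control mouse 2. In Fbxl5-deleted mice it was 1.50% without DDC Fbxl5-deleted mouse 2. Genotype on the standard diet gave 1 with all deposited peaks and 1 with 50% overlap, which also gave 1 for genotype on DDC and 1 for the difference of diet effects.

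Peak numbers turned sign with stronger peaks. For diet and genotype they were 14.0 and −18.0 at −log10 q of at least 2, 17.5 and −15.5 at 5, 9.17 and −17.2 at fold enrichment of at least 4 (a setting chosen after seeing the data), 83.0 and −35.7 without Fbxl5-deleted standard-diet mice 1 and 3, and 9.50 and −7.50 at −log10 q of 5 without those mice (also chosen after seeing the data); leaving out 1 library gave −308.2 to −77.8 and 125.1 to 355.6. Shares turned to 0.00302 (diet, at 5) and 0.0155 (diet, without those mice), and for genotype to −0.00601, −0.00965, −0.0117 and −0.0150 in the order of the first 4 settings and to −0.00647 in the fifth; leaving out 1 library gave −0.108 to −0.0324 and 0.0330 to 0.108. Among the strongest peaks diet passed at −13.7 without extension (exact permutation p = 0.0450), and genotype turned to −10.5, −3.00, −2.17 and −2.50; leaving out 1 library gave −38.5 to −10.3 and −1.75 to 26.5. Median fold enrichment turned for diet to 0.0658 at −log10 q of 2 and 0.0835 at fold enrichment of 4, and passed at −0.724 without those mice, which turned genotype to 0.0865. Leaving out 1 library gave −0.380 to 0.00306 (turned without standard-diet Fbxl5-deleted mouse 2) and −0.641 to −0.258.

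Receptor-gene peaks minus all others no longer passed at −0.0716 without extension and −0.0121 at −log10 q of 5, and minus the silent families at −0.104 without extension. Minus the hepatocyte families it was −0.0633 without extension, 0.0741 and 0.144 (turned) at −log10 q of 2 and 5, −0.132 with protein-coding genes only, −0.0722 at fold enrichment of 4, −0.0841 without those mice and −0.164 to −0.106 leaving out 1 library. The densities per Mb kept their calls in every alternative run.

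The mouse number as a replicate block, which the data do not show to be a pairing, left 29 calls in controls and 13 in Fbxl5-deleted mice, 0 in the other comparisons, and library differences of −177.8, 225.2, −0.0666, 0.0672, −28.8, 16.8, −0.239 and −0.398, none passing. Among the regions called for diet it lost the Olfr1357 and Olfr1127-ps1 calls in controls (limma adjusted p = 0.0566 and 0.0594). Absence from a list at unknown depth does not show closed chromatin.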

Other observations

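The 30 receptor genes on chromosomes X and Y were left out of all comparisons. They held 0 peaks in 8 of the 12 libraries and 1 to 3 in the other 4.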
